A study of Mus musculus with 12 samples.

Results

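The autophagy machinery was described here through 42 genes, chosen by gene name from a list of the conserved core of the pathway, out of 54532 gene identifiers in the count table. These members, and the related lists below, were chosen with earlier results of these data known. Their shares and medians beside those of all genes are therefore descriptions only. Each name matched 1 identifier. All 42 passed the filter on low counts that left 14473 genes for testing, so no member dropped out of any count given below. They fall into 9 roles: 5 genes of the ULK initiation complex, 6 of the class III PI3 kinase complexes, 6 for membrane supply and PI3P reading, 7 conjugation enzymes, 4 ATG4 proteases, 5 ATG8 family genes, 5 cargo receptors, 2 MiT/TFE transcription factors and 2 lysosomal membrane proteins.

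RNA was sequenced from B lymphocytes, sorted from 3 mice labelled Tmem173-/- and from 3 wild type mice, in 4 groups of 3 libraries. These were Tmem173-/- cells given 3'3'-cGAMP for 12 hours, Tmem173-/- control cells, wild type cells given the same 12 hours of 3'3'-cGAMP, and wild type control cells. Tmem173 encodes STING, the endoplasmic reticulum receptor for cyclic dinucleotides, and 3'3'-cGAMP is a bacterial cyclic dinucleotide that binds it. The labels give neither the allele behind Tmem173-/- nor the age of the mice, and they do not say which libraries come from the same mouse. As 3 mice per genotype gave more libraries than mice, some libraries must share a mouse. The main fit treats all 12 libraries as unpaired. The p-values therefore measure only the spread between these libraries.

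Autophagy encloses cytoplasm in a double membrane and delivers it to lysosomes. The ULK kinase complex starts the process, a class III PI3 kinase complex marks the membrane with PI3P, ATG9 and ATG2 proteins supply lipid, and a ubiquitin-like conjugation system attaches ATG8 proteins (the LC3 and GABARAP families) to it, where cargo receptors dock. The transcription factors TFEB and TFE3 switch on many autophagy and lysosome genes. STING itself can trigger LC3 lipidation and is degraded through lysosomes, and B cells use autophagy in memory, plasma cell survival and antigen handling.

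Library totals lay between 26490593 and 31417833 counts, and the members held 8 to 11505 counts per library. RNA of Tmem173, the gene named in the genotype, was at 82.9, 101 and 95.9 CPM (counts relative to the TMM-scaled library total) in Tmem173-/- cGAMP libraries and at 80.2, 94.7 and 103 CPM in Tmem173-/- controls. The wild type cGAMP libraries gave 44.7, 49.2 and 48.0 CPM, and wild type controls 91.2, 102 and 92.7 CPM. The libraries labelled Tmem173-/- control were not lower in it than wild type controls (log2 fold change -0.041, edgeR adjusted p = 0.935), so the transcript does not check the label, and the genotype is used below as labelled. The 6 B cell markers summed to 4763 to 5788 CPM and 4839 to 5515 CPM in the Tmem173-/- cGAMP and control groups, and to 3237 to 4004 CPM and 4585 to 5559 CPM in the wild type cGAMP and control groups. Both wild type libraries numbered 1 stood apart: the 5 neutrophil markers summed to 21.7 CPM (cGAMP) and 8.12 CPM (control) in them, against at most 1.63 CPM in the other 10 libraries, and the 5 T cell markers to 13.6 and 5.98 CPM, against at most 1.32 CPM. Ly6g, a defining neutrophil gene, had 0 counts in all 12 libraries, and the neutrophil sums lie in S100a8, S100a9, Ngp and Camp. The 5 NK cell markers were also highest in both, at 2.33 CPM (cGAMP) and 0.748 CPM (control), against at most 0.457 CPM. Total counts of called members that rest on the wild type libraries are also given without both wild type libraries numbered 1. Counts by role, levels, and most values of single genes are not. Of the members, 6 overlap a gene on the opposite strand that holds at least 10% as many counts (Rubcn, Atg9a, Atg2b, Atg16l2, Atg4b and Atg4d). The strand setting of the counting is not given in the sources used here, so their values are uncertain to that extent.

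In wild type B cells, 12 hours of cGAMP came with lower RNA of most of the autophagy machinery. Of the 42 members, 25 fell and 3 rose (edgeR quasi-likelihood test, Benjamini-Hochberg adjusted p under 0.05 over 14473 genes). Over all genes tested, 25.4% fell and 22.4% rose. The members' median log2 fold change was -0.34, against -0.0036 over all genes tested, and 34 of the 42 estimates were below 0. All 5 ATG8 genes and 4 of 5 ULK complex genes fell, with Map1lc3a the furthest at 0.30 of its control level, and Tfeb fell to 0.48. Atg16l1, Optn and Atg2b were the 3 that rose, by 1.66-fold, 1.63-fold and 1.30-fold. The members together took 0.268% to 0.279% of all counts in wild type cGAMP libraries, against 0.309% to 0.327% in wild type controls. In bulk RNA of this kind, fewer cells of a type and less RNA per cell cannot be told apart.

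Without both wild type libraries numbered 1, 19 members fell and 3 rose. The 6 calls lost there were Rb1cc1, Pik3r4, Atg5, Atg7, Atg16l2 and Atg4a (adjusted p 0.056 to 0.162). Of the 4 monocyte and macrophage markers tested, 1 fell under cGAMP in wild type, Adgre1 (log2 fold change -2.80). Csf1r (-0.64), Lyz2 (0.84) and Cd68 (0.062) were not called. The 5 monocyte and macrophage markers summed to 10.7 to 18.7 CPM, against 36.1 to 46.3 CPM in controls, a gap that lies mostly in Adgre1 (4.26, 5.27 and 3.70 CPM against 23.1, 38.0 and 31.4 CPM). The same sums were 45.9 to 60.9 CPM in Tmem173-/- cGAMP libraries and 48.5 to 57.8 CPM in Tmem173-/- controls. Of the 3 dendritic cell markers tested, Zbtb46 and Flt3 rose (log2 fold change 1.69 and 1.09) and Itgax was not called (-0.54), while Siglech and Clec9a had at most 5 counts in a wild type library. Their list of 5, carried by Zbtb46 and Flt3, summed to 36.4 to 44.5 CPM, against 14.8 to 19.4 CPM. In Tmem173-/- cells these were 19.2 to 23.9 CPM with cGAMP and 17.4 to 20.6 CPM without. Of the 6 B cell markers, 4 fell and 2 rose. The part of these shifts in the members' changes was not tested.

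**Figure D1:**
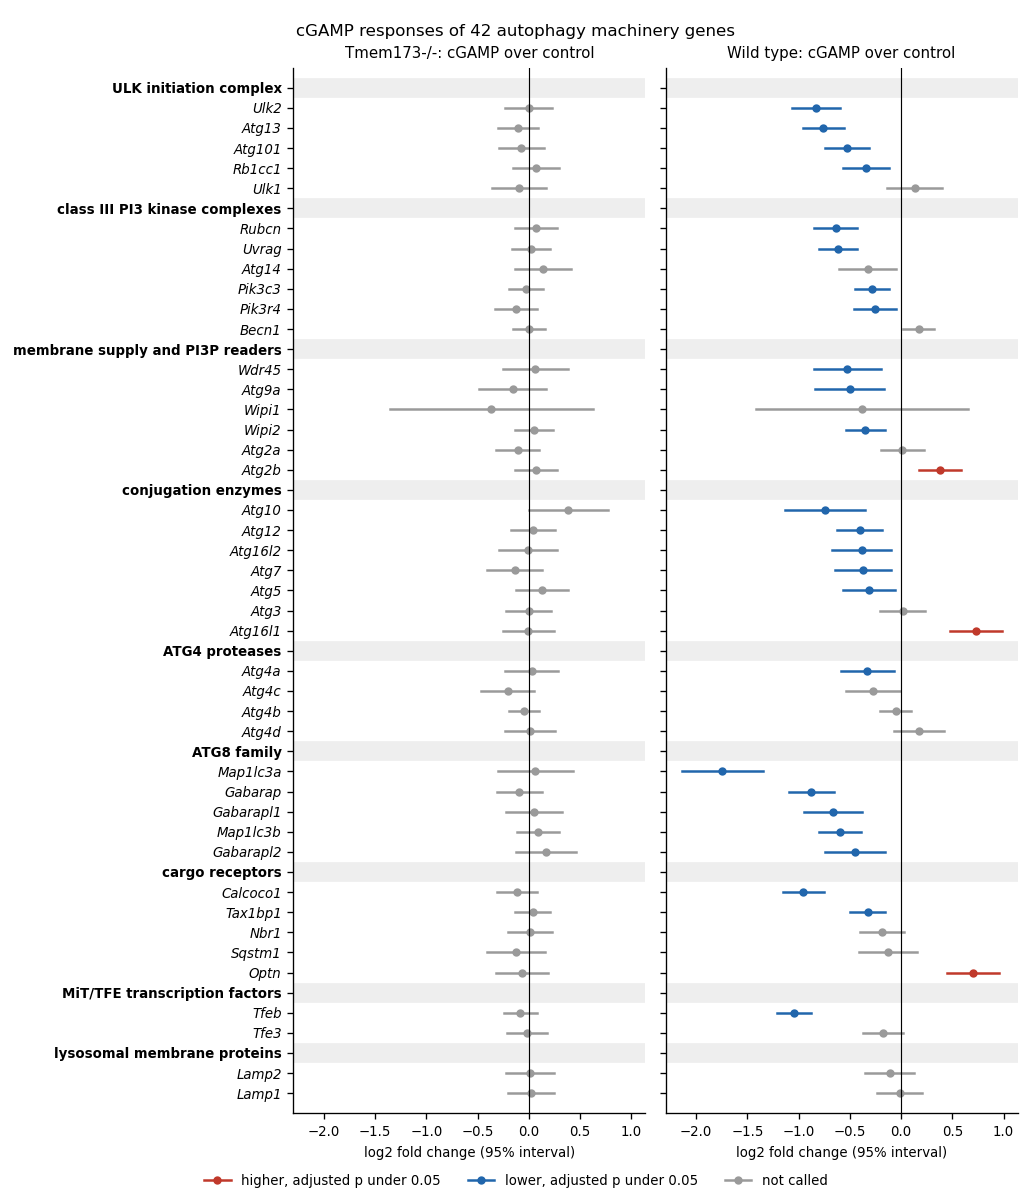
Log2 fold change of each of the 42 members after cGAMP, as points with 95% intervals, in Tmem173-/- cells (left) and wild type cells (right), grouped by role. On the right, 25 members are lower (blue) and 3 higher (red); on the left all 42 are grey, between -0.37 (Wipi1) and 0.39 (Atg10).

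Tfeb, which encodes the best known transcriptional activator of autophagy and lysosome genes, was among the members that changed most. With cGAMP, the 3 wild type libraries had 35.2, 32.2 and 37.0 CPM of it, against 73.4, 73.4 and 68.8 CPM in wild type controls, a log2 fold change of -1.05 (SE 0.078, adjusted p = 3.46e-08). The 3 treated libraries lay at about the same low level, with a wide gap to the controls. In Tmem173-/- cells it was at 71.4, 71.4 and 73.5 CPM with cGAMP and 75.3, 73.9 and 80.1 CPM without. Tfe3, its X-linked relative, was not called (-0.18, adjusted p = 0.13), with groups that overlapped. Without wild type control library 3 the same change was -0.26 with an adjusted p of 0.0285.

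TFEB and TFE3 bind the E-box CACGTG, most strongly in the extended form TCACGTGA. RefSeq windows (GRCm38.p6) of 250 bases before to 50 bases after a transcript start were at hand for 36 of the 42 members, searched on both strands. CACGTG stood in the windows of 6 of these (16.7%), against 8.09% of 27025 genes with a window. The extended form stood in 1 (2.78%), against 1.12% of genes, and every extended match is also a CACGTG match. Of the 21 members with a window that fell, 3 held CACGTG (Rubcn, Atg5 and Atg7); of the 13 that were not called, 3 did (Lamp1, Atg3 and Atg14). The interferon regulatory factor core AANNGAAA stood in 8 of 36 (22.2%), against 26.7% of genes. It stood in 3 of the 21 that fell (Atg5, Atg7 and Gabarap) and in 4 of the 13 that were not called, Lamp1 among them. Of the 2 with a window that rose, 1 held it (Optn), so the core was not confined to a gene that rose. In Atg5, Atg7 and Lamp1 it lay outside the stretch around the E-box. The stretches before the start are shown because they set promoters of members that fell beside those of members that were not called, and Optn, which rose, beside both. The E-box is in capitals, except for Optn, where capitals mark the core as read on the opposite strand:
Rubcn (fell; GRCm38.p6 chr16:32868434-32868469, minus strand): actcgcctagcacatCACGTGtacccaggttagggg
Atg7 (fell; GRCm38.p6 chr6:114670949-114670984, plus strand): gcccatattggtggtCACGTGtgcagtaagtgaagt
Atg5 (fell; GRCm38.p6 chr10:44268310-44268338, plus strand): gggcggagcgcttgcCACGTGgtcttggt
Lamp1 (not called; GRCm38.p6 chr8:13159085-13159160, plus strand): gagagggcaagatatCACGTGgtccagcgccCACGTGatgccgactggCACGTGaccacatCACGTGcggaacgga
Atg3 (not called; GRCm38.p6 chr16:45158720-45158778, plus strand): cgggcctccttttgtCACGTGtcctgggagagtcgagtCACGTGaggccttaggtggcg
Optn (rose; GRCm38.p6 chr2:5064231-5064268, minus strand): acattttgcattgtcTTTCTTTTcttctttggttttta
Lamp1, at 220.1, 208 and 232 CPM with cGAMP against 229, 188 and 249 CPM in wild type controls and not called, has 4 E-boxes within the last 61 bases before its start. Atg3 has 2, and the one nearer its start is the extended form. The wild type log2 fold changes of the 5 E-box genes shown ran from -0.64 (Rubcn) to 0.015 (Atg3), with the letters present both in genes that fell and in genes that were not called. The RefSeq starts of Rubcn and Atg7 lie inside the gene spans of the count table, and other starts of these genes were not used. A match is a description of the sequence only.

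The counts by role in the wild type response stand beside 25.4% lower and 22.4% higher over all genes tested. The ULK complex, which phosphorylates the first components of the pathway, had 4 of its 5 genes fall and none rise. Ulk2, one of its kinases, was at 23.4, 20.3 and 26.2 CPM in wild type cGAMP libraries, against 41.2, 46.1 and 36.5 CPM in controls (log2 fold change -0.83, SE 0.11, adjusted p = 1.6e-05). Atg13, the scaffold that links the kinase to its partners, was at 33.3, 32.5 and 38.0 CPM, against 55.7, 65.0 and 54.7 CPM (-0.76, adjusted p = 5.95e-06). In both genes all 3 treated libraries lay below all 3 controls. Atg101, the partner that stabilises ATG13, was at 24.2, 22.7 and 22.8 CPM, against 30.6, 31.6 and 38.4 CPM (-0.53, adjusted p = 0.000513). Ulk1, the other kinase, was not called. It was at 39.5, 36.6 and 44.2 CPM with cGAMP, against 41.7, 39.0 and 29.1 CPM in controls, with overlapping groups and a 95% interval of -0.13 to 0.40 on the log2 scale. Its estimate of 0.13 turned to -0.016 without wild type control library 3. Rb1cc1, which encodes the scaffold FIP200, fell by 0.34 on the log2 scale. That call was lost without wild type cGAMP library 1 or wild type control library 2 (adjusted p = 0.0648 and 0.0783).

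Of the class III PI3 kinase complexes, 4 of 6 genes fell and none rose. Uvrag, the subunit of the complex that acts at endosomes and late steps, was at 77.1, 84.5 and 83.6 CPM in wild type cGAMP libraries, against 117, 130.0 and 129 CPM in controls (log2 fold change -0.62, adjusted p = 3e-05). Rubcn, the inhibitory partner of that complex, also needed in LC3-associated phagocytosis, was at 144, 145 and 148 CPM, against 241, 233 and 204 CPM (-0.64, adjusted p = 6.16e-05). The treated Rubcn libraries lay within a few CPM of each other. The catalytic subunit Pik3c3 fell by 0.28 and the regulatory subunit Pik3r4 by 0.26 on the log2 scale. Pik3r4 was the called member whose groups overlapped, and its call was lost without any 1 of wild type libraries 1 and 2 of either treatment (adjusted p 0.0688 to 0.172) and in 6 other settings (0.0512 to 0.175). Becn1, the Beclin 1 scaffold of both complexes, had an estimate above 0 that did not pass the test. It was at 106, 112 and 97.8 CPM, against 91.3, 95.5 and 93.8 CPM (0.17, adjusted p = 0.0626). Its treated libraries all lay above the controls, and settings that gained the call included DESeq2 (adjusted p = 0.0174), DESeq2 size factors (0.0407), library totals (0.0199) and leaving out wild type cGAMP library 3 (0.0383). Atg14, which directs the complex to sites of autophagosome formation, just missed the threshold (-0.32, adjusted p = 0.0516) and passed it, among other settings, without wild type cGAMP library 3 (0.0254) or wild type control library 2 (0.0422).

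**Figure D2:**
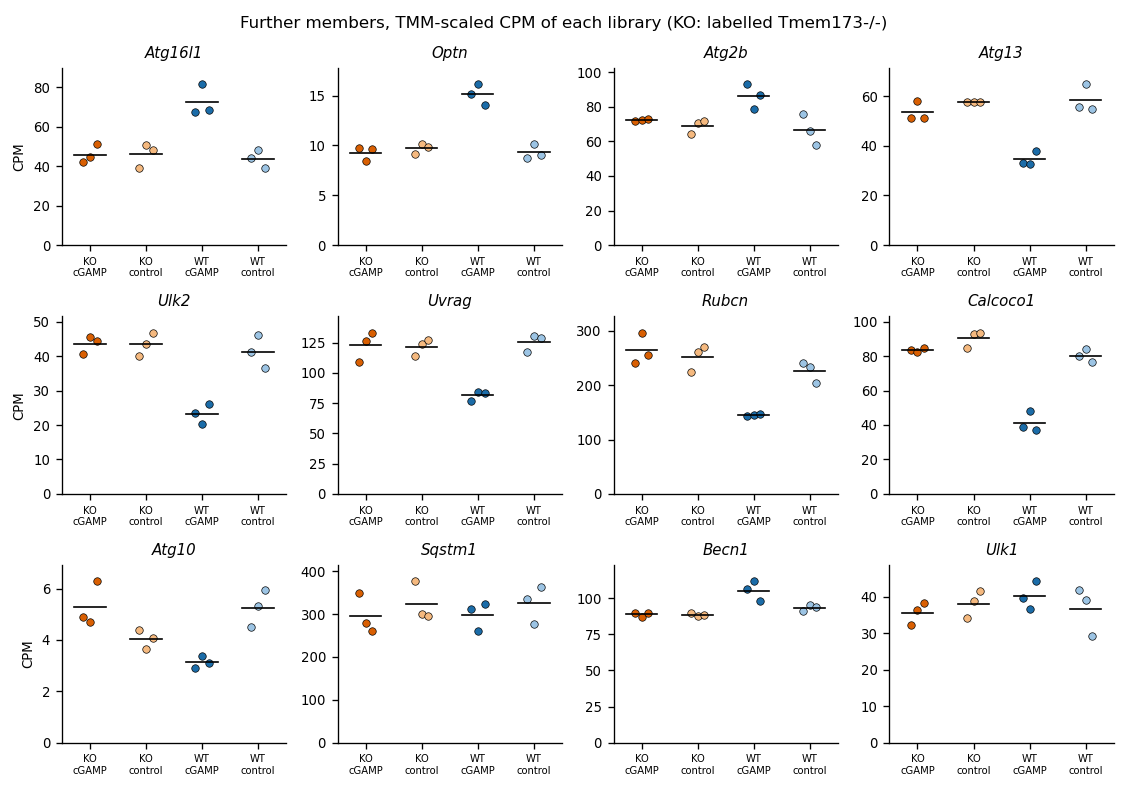
TMM-scaled CPM of 12 members in every library (points) with the group mean (line); KO stands for the libraries labelled Tmem173-/-. The 3 wild type cGAMP libraries of Rubcn lie between 144 and 148 CPM, below the other 9, and those of Optn between 14.1 and 16.2 CPM, above the other 9.

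Among genes for membrane supply and PI3P reading, 3 of 6 fell and 1 rose. Wdr45 and Wipi2, which encode PI3P readers, fell by 0.52 and 0.35 on the log2 scale, and Atg9a, the lipid scramblase of the seed vesicles, by 0.50. Wdr45 was no longer called without wild type control library 2 (adjusted p = 0.0662), and Atg9a without that library (0.0938) or wild type cGAMP library 3 (0.0508). Atg2b, a lipid transfer protein, rose: it was at 93.4, 79.0 and 87.2 CPM with cGAMP, against 75.9, 65.9 and 57.7 CPM in wild type controls (0.38, adjusted p = 0.00427). Its paralogue Atg2a was at 69.5, 67.6 and 71.5 CPM, against 72.7, 74.8 and 59.3 CPM (0.012, interval -0.20 to 0.22). Wipi1 was barely expressed, at 0.983, 0.275 and 0.427 CPM against 0.748, 0.915 and 0.530 CPM, and its interval of -1.42 to 0.65 leaves a change in either direction undetectable at this depth.

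The 7 conjugation enzymes moved in both directions, 5 falling and 1 rising, with both directions inside 1 complex. Atg16l1, which places the ATG12-ATG5 conjugate on membranes, was at 67.7, 81.8 and 68.2 CPM in wild type cGAMP libraries, against 44.0, 48.2 and 38.9 CPM in controls (log2 fold change 0.73, SE 0.12, adjusted p = 9.35e-05). All 3 treated libraries lay above all 3 controls. Its partner Atg5 fell: it was at 41.9, 48.2 and 48.4 CPM, against 51.7, 54.3 and 66.5 CPM (-0.32, adjusted p = 0.0381). The Atg5 call was lost without any 1 of the 3 wild type cGAMP libraries or without wild type control library 3 (adjusted p 0.0545 to 0.183). Atg12, the ubiquitin-like protein joined to ATG5, fell by 0.40 on the log2 scale. Atg10, the E2-like enzyme that joins them, was at 2.91, 3.37 and 3.10 CPM, against 4.49, 5.31 and 5.94 CPM (-0.74, SE 0.18, adjusted p = 0.00341). Atg7, the E1-like enzyme, and Atg16l2, the paralogue of Atg16l1, fell by 0.37 and 0.39. The call of Atg7 was lost without wild type cGAMP library 2 (0.119) or wild type control library 1 (0.0887), and that of Atg16l2 without wild type cGAMP library 1 or 3 or wild type control library 2 (0.0689 to 0.123). Atg3, the E2-like enzyme for ATG8 lipidation, gave 0.015 with an interval of -0.20 to 0.23.

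The ATG4 proteases, which prime ATG8 proteins and release them from lipid, gave 1 fall and no rise among 4 genes. That share of falls, 25%, lies at the 25.4% of all genes tested. Atg4a fell by 0.33 on the log2 scale, and lost its call without wild type cGAMP library 1 or 3 or wild type control library 2 or 3 (adjusted p 0.0749 to 0.141). Atg4b, the broadly acting member of the family, was at 61.4, 64.4 and 65.5 CPM with cGAMP, against 67.2, 63.7 and 67.6 CPM in wild type controls. Its interval of -0.20 to 0.096 was the narrowest of the 42 together with that of Becn1. Atg4c and Atg4d gave -0.27 (adjusted p = 0.0821) and 0.17 (0.22). Atg4d was called higher without wild type control library 2 (0.0465).

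All 5 ATG8 genes fell in wild type cells. Map1lc3a, which encodes LC3A, was at 2.62, 2.34 and 3.03 CPM in wild type cGAMP libraries, against 7.55, 8.90 and 10.4 CPM in controls, a log2 fold change of -1.75 (SE 0.19, adjusted p = 1.57e-06). Map1lc3b, the LC3B gene whose protein is the usual marker of autophagosomes, was at 101, 111 and 97.4 CPM, against 137, 160.4 and 171 CPM (-0.60, SE 0.095, adjusted p = 8.89e-05). In both LC3 genes the groups were well apart. Gabarap, the most abundant of the family per length, was at 149, 160.4 and 149 CPM, against 267, 252 and 322 CPM (-0.88, SE 0.10, adjusted p = 4.94e-06). Gabarapl1 was at 11.9, 9.64 and 11.2 CPM, against 17.0, 15.7 and 19.3 CPM (-0.66, adjusted p = 0.00059). Gabarapl2 fell by 0.45 on the log2 scale, with groups that came within 1 CPM of each other, and lost its call without wild type cGAMP library 1 (adjusted p = 0.065) or wild type control library 3 (0.063). Summed over the 5 genes, the family stood at 304 to 335 CPM in wild type cGAMP libraries, against 481 to 592 CPM in wild type controls. The sums in Tmem173-/- cells were 454 to 492 CPM with cGAMP and 422 to 520.2 CPM without.

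**Figure D3:**
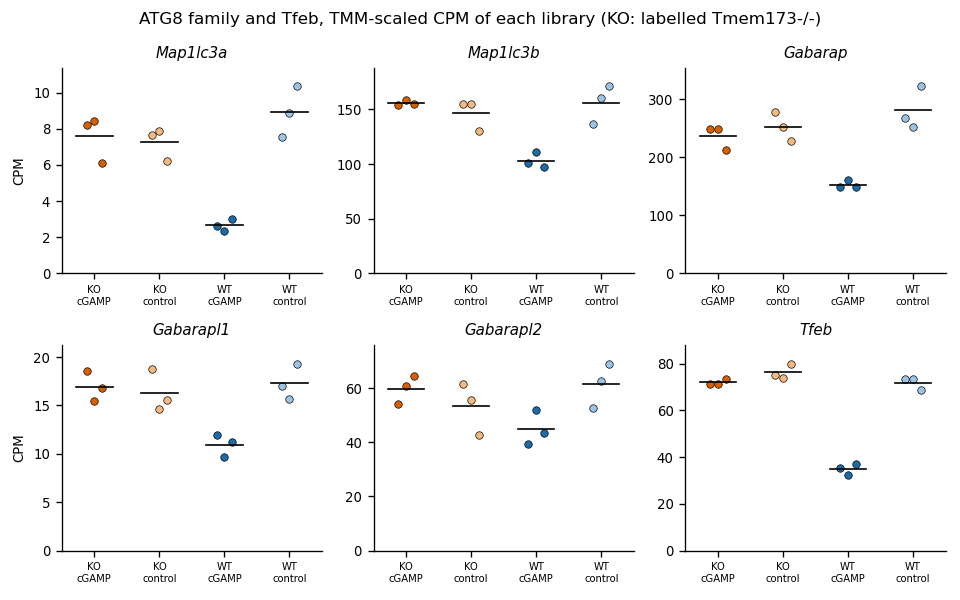
TMM-scaled CPM of the 5 ATG8 genes and Tfeb in every library (points) with the group mean (line); KO stands for the libraries labelled Tmem173-/-. In all 6 panels the 3 wild type cGAMP libraries lie below the 3 wild type controls, for Map1lc3a at 2.34 to 3.03 CPM against 7.55 to 10.4 CPM.

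The cargo receptors, which tie ubiquitinated or other cargo to ATG8 proteins, moved in different directions: 2 of 5 fell and 1 rose. Over all genes tested 25.4% fell and 22.4% rose, so counts this small do not set the role apart. Optn, a receptor for damaged mitochondria and bacteria that the kinase TBK1 activates, was at 15.2, 16.2 and 14.1 CPM with cGAMP, against 8.69, 10.2 and 9.05 CPM in wild type controls (log2 fold change 0.70, SE 0.12, adjusted p = 0.000161). Calcoco1, a receptor for the endoplasmic reticulum and Golgi, was at 39.0, 48.2 and 36.9 CPM, against 80.1, 83.9 and 76.3 CPM (-0.95, SE 0.095, adjusted p = 7.14e-07). Neither gene had overlapping groups. Tax1bp1 fell by 0.33 on the log2 scale. Sqstm1, which encodes p62, was not called. It was at 311, 259 and 322 CPM, against 335, 277 and 363 CPM, with overlapping groups and an interval of -0.41 to 0.16. Nbr1 was also not called (-0.19, adjusted p = 0.148), and was called lower without wild type control library 3 (0.0242). Neither lysosomal membrane gene was called. Lamp2 gave -0.11 and Lamp1 -0.014 on the log2 scale, with intervals of -0.35 to 0.13 and -0.24 to 0.21. Both signs turned without wild type control library 3 (Lamp2 0.024, Lamp1 0.071).

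Per transcript length, the order of some members differed between the treatments in wild type cells, and that of the paralogues compared below did not. On the deposited FPKM scale, which allows levels to be compared between genes, Gabarap stood at 179 ± 7.88 FPKM with cGAMP and 312 ± 23.4 FPKM in controls (mean ± SD, n = 3 each). Sqstm1 stood at 249 ± 27.5 FPKM with cGAMP and 258 ± 24.9 FPKM in controls, so Sqstm1 led the 42 members with cGAMP and Gabarap led them without, in both cases without overlap of the libraries. Lamp1 and Tax1bp1 came next in both groups, and in controls their libraries overlapped. Atg16l1 stood at 32.9 ± 3.67 FPKM with cGAMP and 19.0 ± 2.95 FPKM in controls, and Atg16l2 at 39.3 ± 2.88 FPKM and 49.1 ± 9.28 FPKM. The libraries of these 2 paralogues overlapped with cGAMP and did not in controls. Optn stood at 8.38 ± 0.617 FPKM with cGAMP and 4.91 ± 0.576 FPKM in controls, and Map1lc3a at 2.97 ± 0.371 FPKM and 9.46 ± 1.11 FPKM, so this pair changed places without overlap. Ulk1 stood above Ulk2 in both, at 31.5 ± 2.88 FPKM against 7.39 ± 0.902 FPKM with cGAMP and at 27.6 ± 6.19 FPKM against 12.5 ± 2.05 FPKM in controls. Wipi1 was lowest in both groups. These orders are descriptions with no test.

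**Figure D4:**
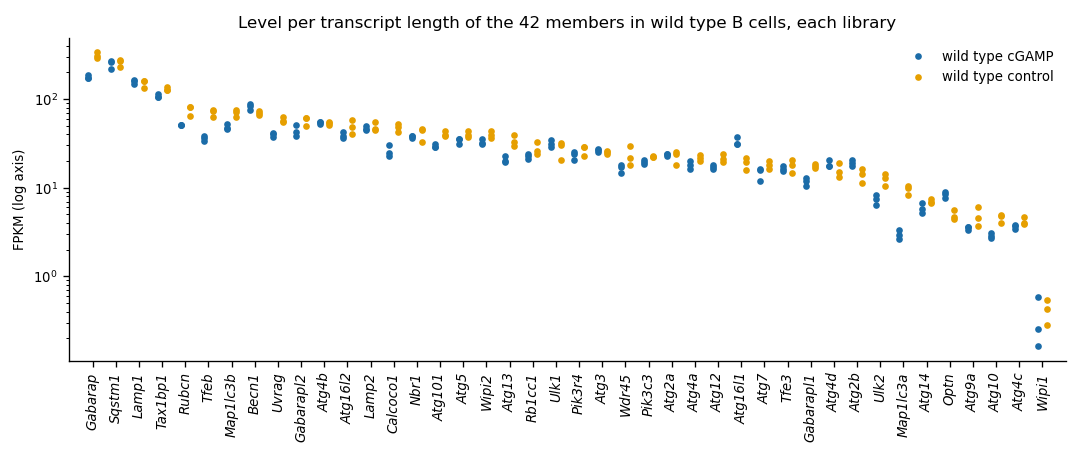
FPKM of each member in every wild type library on a log axis, cGAMP (blue, left of each pair) beside control (orange), ordered by the control mean. Gabarap is highest in controls and Sqstm1 with cGAMP, and Wipi1 is lowest in both.

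In cells labelled Tmem173-/-, none of the members passed the test. Of 42, 0 rose and 0 fell with cGAMP (edgeR), and over all 14473 genes 0% were called in either direction. At an unadjusted p under 0.05 there was 1 member, Atg10, and 203 genes in all. Without the filter on low counts, edgeR called 0 members, but 10 genes higher and 13 lower of 26792. DESeq2 and limma-voom also called 0 members. Atg10 was at 4.88, 4.69 and 6.28 CPM in Tmem173-/- cGAMP libraries, against 4.38, 3.66 and 4.09 CPM in Tmem173-/- controls (log2 fold change 0.39, edgeR adjusted p = 1). All 3 treated libraries lay above all 3 controls, the opposite order to wild type. The members' median log2 fold change was 0.0011, against -0.0029 over all genes, and their share of all counts was 0.325% to 0.329% with cGAMP and 0.322% to 0.336% without. Map1lc3a was at 8.23, 8.42 and 6.11 CPM with cGAMP and 7.65, 7.89 and 6.20 CPM without, with an interval of -0.30 to 0.43 on the log2 scale. Gabarap was at 248, 248 and 212 CPM with cGAMP and 277, 251 and 227 CPM without (-0.31 to 0.13). Atg16l1 was at 42.1, 44.5 and 51.1 CPM with cGAMP and 38.9, 50.9 and 48.4 CPM without (-0.26 to 0.24), and Optn at 9.75, 8.42 and 9.61 CPM and 9.12, 10.1 and 9.81 CPM (-0.32 to 0.19). In each of these 4 genes the treated and control libraries overlapped, whereas 5 members had groups that did not overlap (Atg10, Atg2b, Atg4c, Calcoco1 and Tfeb). The share of all genes without overlap is not given here, so the 5 are not read as responses. A p that misses the threshold does not show that the groups were alike; apart from Wipi1, the widest interval of the 42 is that of Atg10, at 0.0024 to 0.77.

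The difference between the genotypes' responses was tested in the same fit. The contrasts share libraries with those above, so each gives its own values rather than separate evidence. Of the 42 members, 18 had a higher and 2 a lower response in Tmem173-/- cells than in wild type (adjusted p under 0.05), against 17.5% and 14.1% of all genes. The median of this difference over the members was 0.36, against 0.022 over all genes tested. For Map1lc3a the cGAMP response was 0.064 in Tmem173-/- cells and -1.75 in wild type, a difference of 1.81 on the log2 scale (SE 0.25, adjusted p = 7.19e-05). For Tfeb it was -0.083 in Tmem173-/- cells and -1.05 in wild type, a difference of 0.96 (SE 0.11, adjusted p = 9.51e-06). For Optn it was -0.066 in Tmem173-/- cells and 0.70 in wild type, and for Atg16l1 -0.0057 and 0.73, giving differences of -0.77 and -0.74 (adjusted p = 0.00282 and 0.00319). All 5 ATG8 genes and 4 of the 5 ULK complex genes were among the 18, and none of the 4 ATG4 proteases or the 2 lysosomal membrane genes passed. Atg2b, which rose in wild type, gave -0.31 and did not pass (adjusted p = 0.0982). The count of 18 was 11 without Tmem173-/- cGAMP library 2. That leaves out Rb1cc1, Atg101, Wipi2, Wdr45, Atg12, Gabarapl2 and Tax1bp1, each of which also lost its call without other single libraries (adjusted p 0.0503 to 0.132). Without both wild type libraries numbered 1 it was 15, with 2 lower.

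The genotypes were also compared within each treatment. In controls, 0 of 42 members were higher and 0 lower in Tmem173-/- than in wild type cells, as were 0% of all genes by edgeR. At an unadjusted p under 0.05 there was 1 member, Atg101 (log2 fold change -0.23), and 921 genes in all. Without the filter on low counts, edgeR called 0 members, but 32 genes higher and 119 lower of 26792. Without both wild type libraries numbered 1 it called 0 members, 4 genes higher and 1 lower. DESeq2 called 0 members and 4 genes, and limma-voom 0 members. The members' estimates ran from -0.38 (Atg10) to 0.41 (Wipi1). With cGAMP, 24 of 42 members were higher and 4 lower in Tmem173-/- than in wild type cells, against 24.9% and 23.5% of all genes. The largest gaps were in Map1lc3a (1.51), Tfeb (1.05), Calcoco1 (1.02), Ulk2 (0.90) and Rubcn (0.86). Rubcn was at 240.4, 297 and 255 CPM in Tmem173-/- cGAMP libraries, against 144, 145 and 148 CPM in wild type cGAMP libraries. The 4 lower members were Optn (-0.71), Atg16l1 (-0.66), Atg2b (-0.26) and Becn1 (-0.24). Becn1 was at 89.7, 87.2 and 89.6 CPM in Tmem173-/- cGAMP libraries, against 106, 112 and 97.8 CPM in wild type cGAMP libraries, and all 6 class III PI3 kinase genes passed the test here, 5 of them higher. Of these, Pik3r4 lost its call without wild type cGAMP library 2 or Tmem173-/- cGAMP library 2 or 3 (adjusted p 0.0624 to 0.089) and with library totals (0.0541). Without both wild type libraries numbered 1 the counts were 21 higher and 3 lower. Becn1 and Atg2b were not called without the filter on low counts (adjusted p = 0.0795 and 0.063). Atg2b also lost its call without wild type cGAMP library 1 or 3 or any 1 of the 3 Tmem173-/- cGAMP libraries (0.0815 to 0.162).

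Genes around the core were described through 5 lists of 104 genes, of which 101 were tested. In wild type cells 39 of the 101 fell and 14 rose with cGAMP, beside 25.4% and 22.4% of all genes, with a median log2 fold change of -0.11. Without both wild type libraries numbered 1, a setting added for these lists after seeing the data, 35 fell and 11 rose. In Tmem173-/- cells 0 of the 101 passed in either direction.

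Of 25 nutrient and stress inputs to ULK, 8 fell and 4 rose (32% and 16%, beside 25.4% and 22.4% of all genes). Deptor, an inhibitory partner of mTOR, was at 0.400, 0.999 and 0.641 CPM with cGAMP, against 2.92, 2.22 and 2.26 CPM in wild type controls (-1.85). Sesn1, a sestrin that restrains mTORC1, was at 32.3, 36.1 and 33.7 CPM, against 79.4, 105 and 91.1 CPM (-1.44). The mTOR subunit Mlst8 and Stk11, the kinase LKB1 upstream of AMPK, rose by 0.55 and 0.53. Of 19 further nucleation and membrane factors, 8 fell and 2 rose (42.1% and 10.5%). Bcl2 and Bcl2l1 encode proteins that bind Beclin 1, and they moved in opposite directions. Bcl2 was at 23.0, 26.1 and 21.7 CPM, against 54.4, 60.2 and 57.2 CPM (-1.28), and Bcl2l1 averaged 86.1 ± 4.17 CPM, against 52.7 ± 4.38 CPM (mean ± SD, n = 3 each; 0.71). Trp53inp1, whose protein binds ATG8 proteins, fell (-0.68), and C9orf72, part of a complex that acts on ULK1 and lysosomes, rose (1.13).

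Of 17 genes for fusion with the lysosome, 6 fell and 3 rose (35.3% and 17.6%). Vamp8, a SNARE of that fusion, was at 31.4, 37.8 and 32.4 CPM with cGAMP, against 58.5, 62.0 and 78.3 CPM in wild type controls (-0.97). Plekhm1, an adaptor between ATG8 proteins and the tethering complex, fell as well (-0.80), while Tecpr2 (0.91) and the transport adaptor Fyco1 (0.71) rose. Of 18 genes for selective autophagy and mitophagy, 5 fell and 3 rose (27.8% and 16.7%), near the 25.4% and 22.4% of all genes. The list's median was -0.072, so the 2 largest falls, both in mitophagy genes, do not stand for the list. Pink1, the kinase that flags damaged mitochondria, was at 31.2, 35.3 and 37.1 CPM, against 86.9, 94.1 and 102 CPM (-1.45). The receptor Bnip3l was at 67.9, 81.4 and 76.1 CPM, against 161, 172 and 207 CPM (-1.26). Tbk1, the kinase that acts on OPTN and also downstream of STING, was at 111, 121 and 118 CPM, against 77.4, 86.0 and 83.4 CPM (0.51). The ubiquitin-binding deacetylase gene Hdac6 rose by 0.30 and was not called without wild type cGAMP library 1 (adjusted p = 0.0543), without wild type control library 3 (0.0843) or without both wild type libraries numbered 1 (0.0723).

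The 22 lysosomal enzyme and membrane genes held the highest share of falls among the 5 lists, 12 (54.5%, beside 25.4% of all genes), with 2 rises. Lipa, the lysosomal acid lipase, was at 26.2, 24.5 and 23.2 CPM with cGAMP, against 48.6, 48.1 and 61.8 CPM in wild type controls (-1.10, SE 0.099, adjusted p = 2.58e-07). Its groups did not overlap. Mcoln1, the lysosomal calcium channel TRPML1, rose by 0.55 on the log2 scale. The list's median was -0.36, close to that of the 42 members, and Lamp1 and Lamp2 above were not called.

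**Figure D5:**
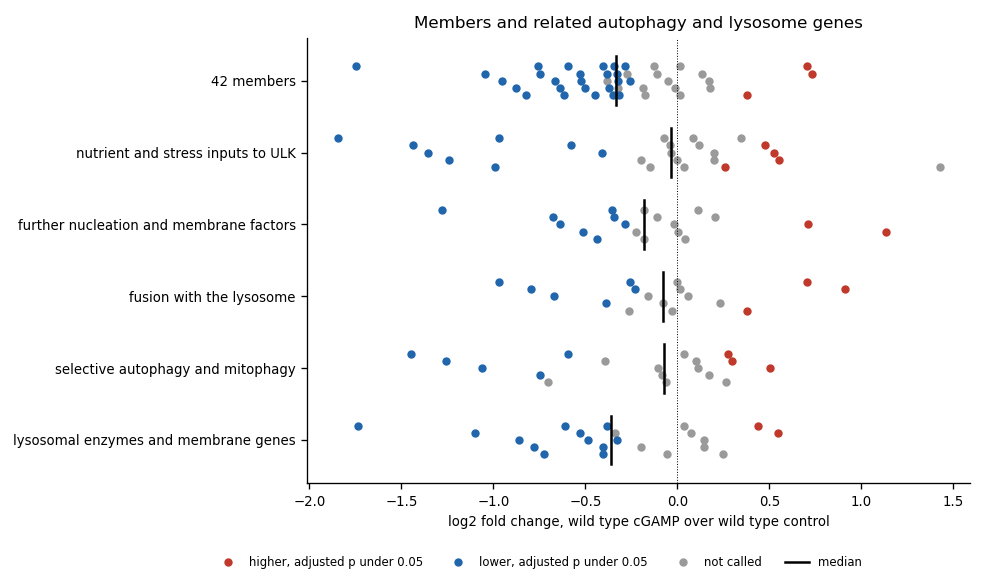
Log2 fold change of wild type cGAMP over wild type control for the 42 members and the 5 lists of related genes, 1 point per gene (red higher, blue lower, grey not called) with the median as a line. The medians of the members (-0.34) and of the lysosomal list (-0.36) lie furthest below 0; the grey point at 1.42 is Fnip2 (adjusted p = 0.0927).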

How the data were processed

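Poly(A) RNA of sorted B cells was sequenced in 12 libraries, 3 in each of 4 groups. The authors deposited raw read counts per gene and FPKM values. Per the submitters' processing notes, fastp, STAR and featureCounts were used with GRCm38/mm10; versions, annotation release, strand setting, the treatment of reads matching several genes and the FPKM gene lengths are not given in the sources used here. A second deposited count table without gene names was not used.

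The counts were filtered with filterByExpr, scaled with TMM and fitted with 4 group means by edgeR's quasi-likelihood test (edgeR 4.0.16, R 4.3.3), robust, over all 12 libraries. The 5 contrasts were adjusted by Benjamini-Hochberg over 14473 genes, with a threshold of 0.05. SEs are the log2 fold change over the square root of F, and intervals are 95%. CPM are TMM-scaled, and the deposited FPKM served only for levels between genes. Library totals of 26490593 to 31417833 counts set the precision, and intervals cover the spread between libraries. No 2 replicates held the same counts. On data simulated for the wild type contrast, over 14198 genes, 62 of 98 genes changed by 1 on the log2 scale were recovered, and 28 of 99 changed by 0.5. Few genes were changed in that simulation, whereas 25.4% of all genes fell and 22.4% rose in the real contrast. The adjusted p threshold was stricter there, so these shares do not carry over. How often changes of the smaller size are missed in the real data was not measured. Alternatives used DESeq2 1.42.0, limma-voom (limma 3.58.1), other scalings, no filter, a replicate block and libraries left out. Figures were drawn with matplotlib 3.10.9 (Python 3.11.15).

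The members and lists were chosen with earlier results of these data known. Values by library were given for the 14 called members with the largest change in wild type and without overlap of the groups, and for Map1lc3b, Sqstm1, Becn1, Ulk1, Atg5, Atg16l1 and Tfeb. From each related list up to 2 rises and 2 falls were named, apart from some that are not reported here. The values by library of Atg2a, Atg2b, Atg4b, Wipi1 and Lamp1, and of the B cell, macrophage and dendritic cell markers named, were added after values were seen. Promoter windows are from RefSeq.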

Additional observations from a re-analysis of the deposited data

Results flagged for a closer look

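The response to cGAMP differed between the genotypes for 20 of the 42 members, by the interaction term of the edgeR fit (adjusted p under 0.05 over 14473 genes), 18 of them higher and 2 lower, where 17.5% and 14.1% of all genes were. Of the 18, 7 lost their call when some single libraries were left out (Rb1cc1, Atg101, Wipi2, Wdr45, Atg12, Gabarapl2 and Tax1bp1). The values below are the Tmem173-/- response minus the wild type response, on the log2 scale. Among the ATG8 genes the difference was 1.81 for Map1lc3a, 0.78 for Gabarap, 0.72 for Gabarapl1, 0.69 for Map1lc3b and 0.61 for Gabarapl2. In the ULK complex it was 0.82 for Ulk2, 0.65 for Atg13, 0.46 for Atg101 and 0.41 for Rb1cc1. It was 0.71 for Rubcn and 0.63 for Uvrag, 0.59 for Wdr45 and 0.40 for Wipi2. Among the conjugation enzymes it was 1.13 for Atg10 and 0.44 for Atg12, and -0.74 for Atg16l1, whose sign is opposite. The remaining differences were 0.84 for Calcoco1, 0.36 for Tax1bp1, 0.96 for Tfeb and -0.77 for Optn. For Atg10 the response was 0.39 in Tmem173-/- cells and -0.74 in wild type. For the other members among the 20, the estimate in Tmem173-/- cells lay between -0.11 (Calcoco1) and 0.17 (Gabarapl2).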

How the results depend on the processing

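In wild type, 19 of the 28 called members (3 higher, 16 lower) kept their call under all 14 alternatives. So did 13 of 20 for the difference between the responses (19 alternatives) and 20 of 28 for Tmem173-/- cGAMP against wild type cGAMP (14 alternatives), and no called member changed sign. With 1 library left out at a time, the wild type response gave 3 to 4 members higher and 19 to 24 lower, the difference between the responses 11 to 19 higher and 2 to 3 lower, and the genotype contrast with cGAMP 19 to 23 higher and 3 to 4 lower. Only 2 members were lower in Tmem173-/- cGAMP than in wild type cGAMP without the filter on low counts. The Tmem173-/- response and the genotype contrast in controls gave 0 members under every alternative.

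Values of uncalled members were recomputed for the wild type response alone, and those below changed sign there. With 1 library left out at a time, Ulk1 ran from -0.0156 to 0.229, Atg2a from -0.0910 to 0.0696, Atg3 from -0.0496 to 0.0845, Lamp1 from -0.128 to 0.0713 and Lamp2 from -0.194 to 0.0240. Without both wild type libraries numbered 1, Atg3 was -0.0237 and Lamp1 0.0032. With library totals, Atg4b was 0.0168 and Lamp1 0.0600. Lamp1 was 0.0043 with DESeq2 size factors and with DESeq2.

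The labels do not say that replicate numbers pair the libraries. Same-numbered libraries deviated together with r of 0.288, 0.0958 and 0.170 in Tmem173-/- and 0.300, 0.218 and 0.0834 in wild type, so not every pair passed 0.1, although every library correlated best with its own number, a hint from the data and not the design. With the replicate block, 4 members were higher and 26 lower in wild type, 22 higher and 3 lower for the difference between the responses, 24 higher and 4 lower for the genotypes with cGAMP, and 0 in both other contrasts. Becn1 (0.17, adjusted p = 0.0378) and Atg14 (-0.33, adjusted p = 0.0263) gained their wild type calls with the block. Wipi1, with 8 to 27 counts in the wild type cGAMP libraries, had the widest interval of the 42.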

Other observations

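The genes around the core gave 32 higher and 12 lower responses in Tmem173-/- cells than in wild type among the 101 tested, where 17.5% and 14.1% of all genes did. The lysosomal enzyme and membrane genes held 11 of the higher ones among 22 tested. The difference between the responses was 1.32 on the log2 scale for Pink1 (adjusted p = 2.21e-06), for Bcl2 1.25 (1.41e-05) and for Tbk1 -0.47 (0.00379). The 5 lists did not move as 1 block in wild type cells: their medians ran from -0.36 for the lysosomal genes to -0.037 for the nutrient and stress inputs.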
